A study of Homo sapiens with 7 samples.

Results

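The genes described here encode carriers that move organic ions, bile acids, drugs and lipids across membranes, together with the soluble proteins of the ABC (ATP-binding cassette) class. They were chosen by symbol: every protein-coding gene of the deposited table whose symbol starts with SLC22A, SLCO, SLC10A or SLC47A, or with ABC followed by a letter from A to G and a digit. This gave 89 genes of 58174 in the table, of which 19799 are protein-coding, and 44 of the 89 have symbols of the SLC (solute carrier) class and 45 of the ABC class. The 44 include SLC22A18AS, which the table lists as protein-coding but which is named as the antisense gene of SLC22A18 and is no carrier. The cells were Huh-7, a hepatocellular carcinoma line of human origin, and total RNA was sequenced 72 h after they received control siRNAs (siC, 3 libraries) or a siRNA pool against IGF2BP1, an oncofetal RNA-binding protein that the sample titles call Imp1 (siImp1, 4 libraries). The study asked which transcripts depend on IGF2BP1 in this cell line. Cells of both groups were grown in the same serum-containing medium, and all libraries come from 1 cell line and 1 siRNA pool.

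A hepatocyte takes up bile acids, bilirubin conjugates, hormones and drugs from blood through SLC10A1, the SLCO organic anion carriers and the SLC22A organic ion carriers of its basolateral membrane. It then secretes them, mostly after conjugation, through ABC pumps of the canalicular membrane, in which ABCB11 exports bile salts, ABCC2 conjugates, ABCB1 and ABCG2 drugs, ABCB4 phosphatidylcholine and the ABCG5/ABCG8 dimer sterols. ABCA1 exports cholesterol and phospholipid to apolipoprotein A1, ABCD3 feeds fatty acids into peroxisomes, ABCD4 moves cobalamin out of lysosomes, and ABCE and ABCF proteins act at the ribosome and carry nothing across a membrane.

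The knockdown was visible in each library. IGF2BP1 stood at 81.9, 80.4 and 84.4 FPKM (fragments scaled to gene length and library size) in siC and at 15.6, 15.7, 16.6 and 15.3 FPKM in siImp1, so that the siImp1 mean was 19.2% of the siC mean. Depth was 12826550 to 33212205 reads on genes per library. Among the libraries, siC replicate 3 stood apart from the other siC libraries, with Pearson correlations of 0.916 and 0.929 to them against 0.971 between these (log2 values of all genes tested). Its distance from them fell with the GC content of the transcript (Spearman's rho = -0.427 across genes), and siImp1 replicate 2 differed from its group in the same way (-0.386). The cause of these differences was not tested. A fit with the GC trend removed is described with the other processing alternatives, and values without siC replicate 3 are given where a call depends on it. All 10 hepatocyte and hepatoma markers examined (such as ALB and AFP) were expressed, with a summed level from 5868 to 7306 FPKM in siC and from 6622 to 6793 FPKM in siImp1. None of the 10 was called by limma at 0.01 or by voom, while at an unadjusted p under 0.05 TF was higher (298.8 ± 89.7 FPKM in siC and 499.8 ± 8.97 in siImp1, limma adjusted p = 0.0529, and 0.000717 without siC replicate 3) and APOB, TTR and FGB were lower. Of 10 markers of other cell types, only PECAM1 and COL1A2 exceeded a mean of 1 FPKM, MUC16 was at 0 in each siC library, and their summed level ran from 3.41 to 4.32 FPKM in siC and from 4.09 to 4.63 FPKM in siImp1. Since these are bulk libraries, fewer cells with a transcript and less transcript per cell cannot be told apart.

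In siImp1, 4 transporter transcripts rose, namely SLC22A9, SLCO1B3, ABCA1 and ABCB1, by 1.47 to 1.92-fold, and 0 fell. These calls used limma on log2(FPKM + 0.1) over the 14839 genes that averaged 1 FPKM or more in the 7 libraries, with an adjusted p of at most 0.01. Of the 89 members, 41 were tested, 43 had reads but lay below this level, and 5 were listed at 0 in each library. The 4 called members are 9.76% of those tested, where the same call was made for 3.93% of all genes tested (1.65% higher and 2.28% lower), and for 5.07% of the protein-coding ones. At an unadjusted limma p under 0.05, 12 members were higher and 4 lower, against 11.0% and 14.8% of all genes, and voom on the reads called the same 4 higher (2.38% of all genes) and 0 lower (3.3%). At a limma adjusted p of at most 0.05, 9 members were higher and 3 lower, against 4.74% and 6.81% of all genes. Libraries of the groups did not overlap for 11 members that were higher and 6 that were lower in siImp1, together 41.5% of those tested, against 27.0% of all genes (11.9% higher and 15.1% lower). Apart from the 5.07%, these shares are over genes of all biotypes, while all members are listed as protein-coding, so they are not matched to the members. The median log2 change (siImp1 minus siC) over the 41 members was 0.09 and over all genes -0.02, and no member tested reached a log2 change of 1 in either direction. By level, the members just inside and just outside the limit of 1 FPKM had means of 1.03 and 0.878 FPKM.

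**Figure D1:**
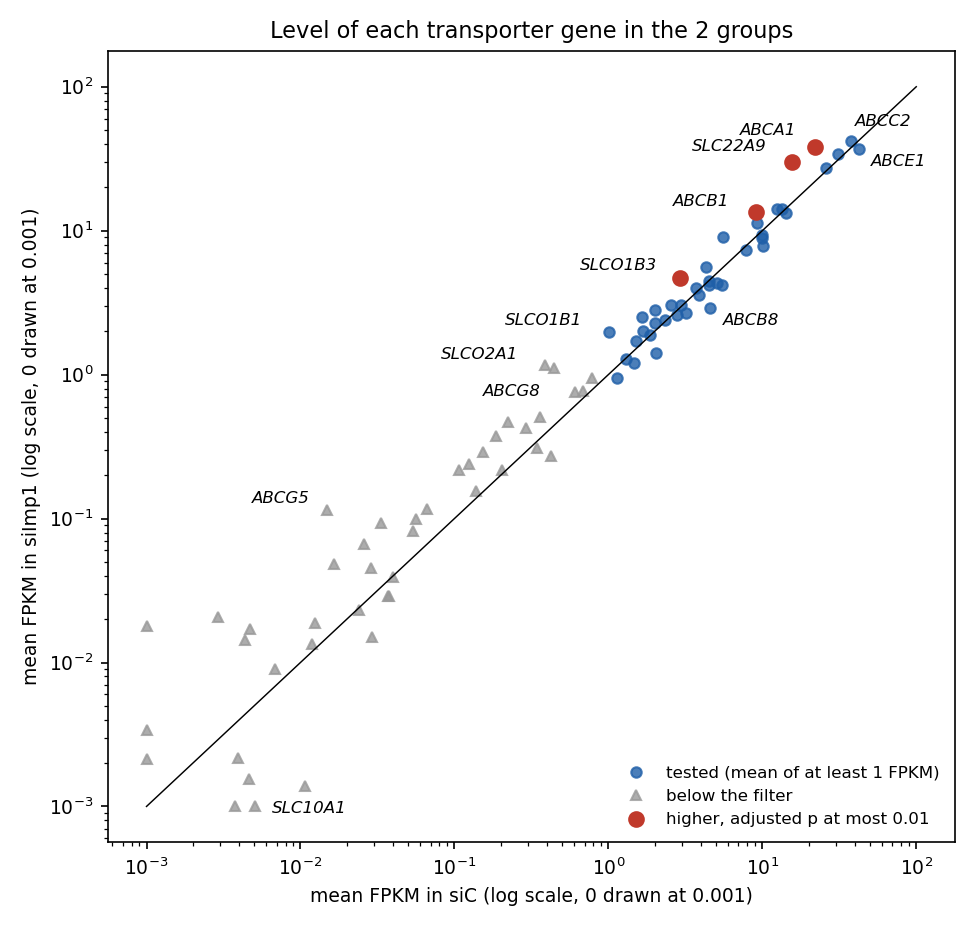
Mean FPKM of the 84 transporter genes with reads in siC (horizontal axis, n = 3) and in siImp1 (vertical axis, n = 4), both on log scales with 0 drawn at 0.001, and a diagonal line of equal level. The 4 genes past the threshold (large circles) lie above the line between 2.92 and 22.0 FPKM in siC, and the genes below the filter (triangles) that lie farthest above it include SLCO2A1, ABCG8 and ABCG5.

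Among the 23 genes with SLC22A symbols, which other than SLC22A18AS belong to the family of organic anion, cation and zwitterion carriers, 7 were tested and 1 rose. SLC22A9, a liver organic anion carrier known as OAT7 (chr11:63369785-63410294, plus strand, GRCh38), stood at 15.2, 16.02 and 15.7 FPKM in siC and at 29.6, 29.8, 30.2 and 30.7 FPKM in siImp1. The 2 groups lay far apart, and the libraries within each differed by little. The siImp1 mean of 30.1 ± 0.478 FPKM (SD, n = 4) was 1.92-fold the siC mean of 15.6 ± 0.390 FPKM (SD, n = 3), a log2 change of 0.94 with a 95% interval from 0.82 to 1.06 (limma adjusted p = 0.00038). It passed the threshold with any 1 of the 7 libraries left out, at limma adjusted p values from 0.000227 to 0.00448.

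The other SLC22A genes did not pass. SLC22A23, a member without an established substrate, stood at 9.09, 9.12 and 9.35 FPKM in siC and at 11.5, 11.3, 11.2 and 11.0 FPKM in siImp1, without overlap (log2 change 0.29, limma adjusted p = 0.0156), and passed without siC replicate 3 (adjusted p = 0.00527). It overlaps PSMG4 on the other strand, and whether reads were assigned by strand is not given in the sources used here. SLC22A31, a further member without an established substrate, was at 1.97, 2.21 and 1.84 FPKM in siC and at 2.98, 2.68, 2.75 and 2.86 FPKM in siImp1, again without overlap (log2 change 0.47, limma adjusted p = 0.0266). In the opposite direction, the carnitine carrier SLC22A5 (1.13 ± 0.0415 FPKM in siC, n = 3, and 0.945 ± 0.0843 in siImp1, n = 4) and the zwitterion carrier SLC22A15 (3.20 ± 0.292 and 2.66 ± 0.149 FPKM) had groups without overlap, at limma adjusted p = 0.468 and 0.149. SLC22A5 passed the filter only through its siC level. The extraneuronal cation carrier SLC22A3 was at 4.48 ± 0.244 and 4.22 ± 0.216 FPKM with overlapping groups, and SLC22A18 at 2.03 ± 0.660 and 1.40 ± 0.116 FPKM (limma adjusted p = 0.270). The hepatocyte anion carrier SLC22A7 (OAT2) lay below the filter, with 12 to 42 reads per library, and its groups overlapped.

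Among the 12 SLCO genes, carriers of bile acids, steroid and thyroid hormone conjugates and drugs, 5 were tested and SLCO1B3 rose. SLCO1B3 (OATP1B3, chr12:20810702-20916911, plus strand) and SLCO1B1 (OATP1B1, chr12:21131194-21239796, plus strand) are the liver pair of the family. The 250 bases before their RefSeq start sites (build GRCh38.p14, 5′ to 3′ on the strand of the gene) are shown because both members lie higher in siImp1 and lie in the same gene cluster, with SLCO1B7 between them. SLCO1B3 is from chr12:20810455-20810704 and SLCO1B1 from chr12:21130944-21131193, with matches in capitals.
SLCO1B3: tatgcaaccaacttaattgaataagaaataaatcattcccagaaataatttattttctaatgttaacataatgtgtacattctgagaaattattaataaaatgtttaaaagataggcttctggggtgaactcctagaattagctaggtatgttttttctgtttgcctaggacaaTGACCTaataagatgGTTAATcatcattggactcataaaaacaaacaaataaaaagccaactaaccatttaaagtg
SLCO1B1: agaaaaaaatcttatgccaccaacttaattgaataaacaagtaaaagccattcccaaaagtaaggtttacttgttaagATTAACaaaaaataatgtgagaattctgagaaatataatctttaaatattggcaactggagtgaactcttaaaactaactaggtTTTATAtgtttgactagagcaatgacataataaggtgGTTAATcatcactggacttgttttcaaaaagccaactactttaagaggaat
The capitals mark the HNF1 core GTTAAT (or ATTAAC on the other strand), the nuclear receptor core AGGTCA (or TGACCT) and the TATA box TATAAA (or TTTATA), of which no match overlapped another in either sequence. GTTAAT begins 61 bases before the SLCO1B3 start and 51 bases before the SLCO1B1 start, and SLCO1B1 holds a second HNF1 core, on the other strand, 172 bases before its start. Over the RefSeq windows of 300 bases (250 before and 50 after a start) the HNF1 core was in 6.89% of 27305 promoters. It was in 5 of the 62 member promoters listed, or 8.06% (SLC10A2, SLC22A6, SLCO1A2, SLCO1B1 and SLCO1B3), which is a match of letters and not a binding site. The nuclear receptor core was in 13.9% of all and in 11.3% of member promoters, and the TATA box in 3264 of all and in 11 of the 62 member promoters (17.7%). The SLCO1B3 and SLCO1B1 windows were identical at 216 of 261 aligned bases (82.8%).

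SLCO1B3 stood at 2.82, 2.63 and 3.32 FPKM in siC and at 4.71, 5.09, 4.39 and 4.50 FPKM in siImp1. Each siImp1 library lay above each siC library, and siC replicate 3 was the highest of its group. The mean rose from 2.92 ± 0.360 FPKM (SD, n = 3) to 4.67 ± 0.307 FPKM (SD, n = 4), which is 1.598-fold, with a log2 change of 0.66 and a 95% interval from 0.42 to 0.90 (limma adjusted p = 0.0088). This call depended on the libraries: without siC replicate 3 the adjusted p was 0.00232, and without any 1 of the other 6 libraries it lay between 0.0281 and 0.0392, with log2 changes from 0.59 to 0.69. SLCO1B3 lies on the same strand as the readthrough gene SLCO1B3-SLCO1B7, and its reads and those of that gene could not be told apart.

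SLCO1B1 stood at 0.966, 1.04 and 1.04 FPKM in siC and at 1.86, 2.68, 1.73 and 1.69 FPKM in siImp1. The groups did not overlap, and siImp1 replicate 2 lay above the other siImp1 libraries. The siImp1 mean was 1.96-fold the siC mean, a change of the size seen for SLC22A9 but with a wider 95% interval, from 0.44 to 1.33 around a log2 change of 0.88, and it missed the threshold (limma adjusted p = 0.0281). Its libraries held 32 to 112 reads on this gene. SLCO1B1 overlaps a protein-coding gene without a symbol on the same strand, which also overlaps SLCO1B7, so some reads could belong to either. The canonical transcripts of SLCO1B3 and SLCO1B1 were 85.2% identical over 2698 aligned bases, with an exact stretch of at most 48 bases.

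The remaining SLCO genes with a mean over 1 FPKM had overlapping groups. The widely expressed carrier SLCO2B1 was at 3.71 ± 0.654 FPKM in siC and 3.99 ± 0.0719 FPKM in siImp1 (limma adjusted p = 0.621), SLCO1A2 at 2.54 ± 0.267 and 3.05 ± 0.226 FPKM (adjusted p = 0.184), and SLCO4C1 at 7.81 ± 0.683 and 7.29 ± 0.730 FPKM (adjusted p = 0.603). SLCO2A1, the prostaglandin carrier, lay below the filter because its siC level was low. It stood at 0.373, 0.349 and 0.440 FPKM in siC and at 1.17, 1.23, 1.17 and 1.09 FPKM in siImp1, from 32 to 59 reads and from 75 to 122 reads per library. Its groups lay far apart, and the siImp1 mean was 3.01-fold the siC mean. Without a filter on level its log2 change was 1.38 (limma adjusted p = 0.0096, where 0.425% of 34319 genes were called higher), and by voom over genes with at least 20 reads in all it was 1.63 (adjusted p = 0.000187, with 1.94% of 21819 genes called higher).

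**Figure D2:**
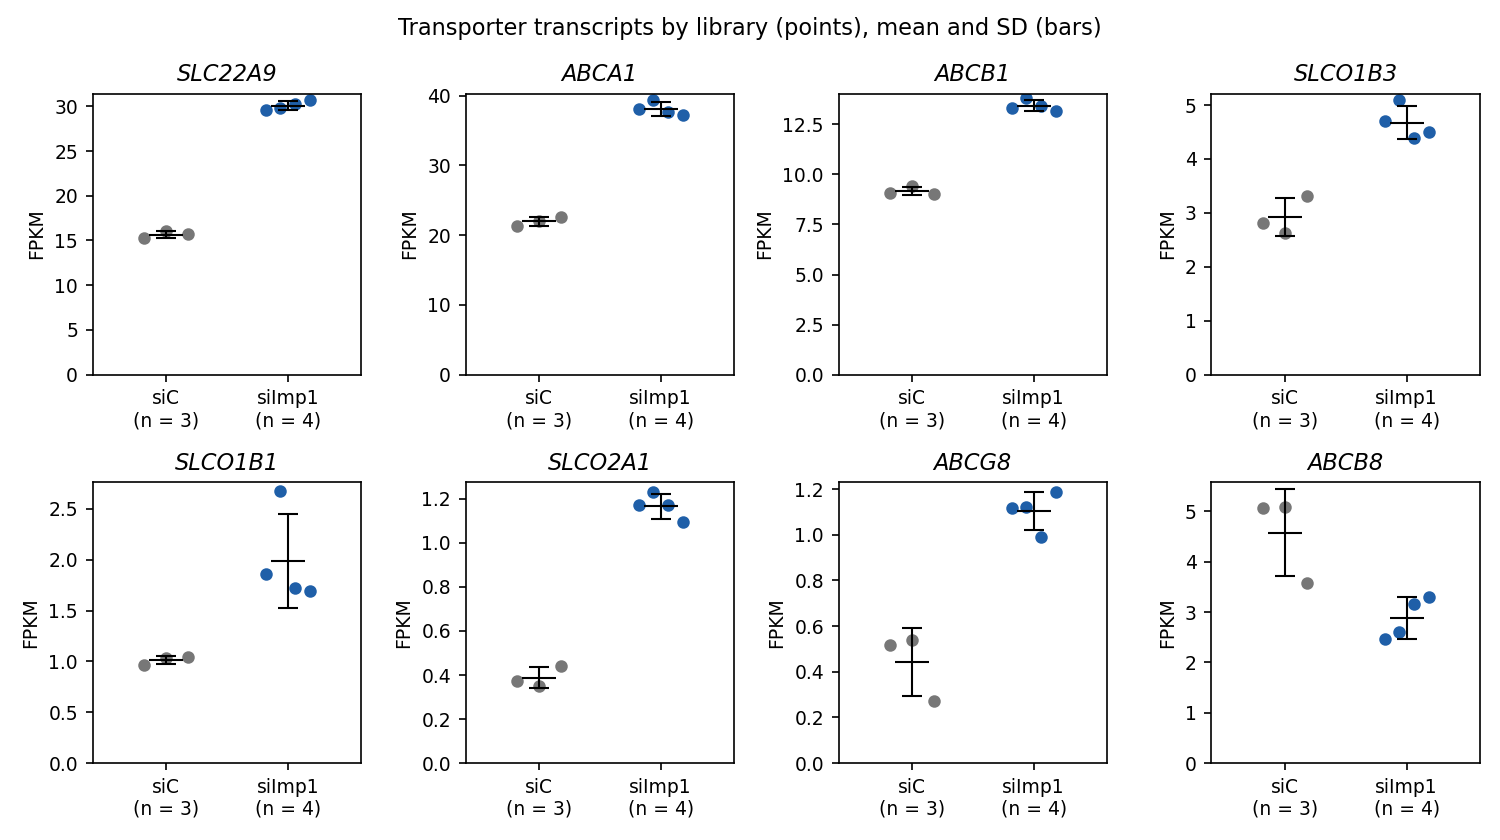
FPKM of 8 transporter transcripts in each library (points) of siC (n = 3) and siImp1 (n = 4), with the mean and SD of each group as bars and vertical axes that start at 0. In each panel the groups do not overlap; SLC22A9, ABCA1, ABCB1 and SLCO1B3 passed the threshold, SLCO1B1 and ABCB8 did not, and SLCO2A1 and ABCG8 lay below the filter.

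The bile acid carriers proper showed no call. SLC10A1 (NTCP), the basolateral sodium-dependent importer of hepatocytes, had 1 read in all, in siC replicate 2, and SLC10A2, the intestinal importer, was listed at 0 in each library. ABCB11 (BSEP), the canalicular bile salt pump, had 7 to 18 reads in the siC libraries and 5 to 32 reads in the siImp1 libraries, and the groups overlapped. The abundant members of the SLC10A family in these cells were SLC10A3 and SLC10A7, which are not known to carry bile acids. SLC10A3 stood at 5.87, 5.53 and 5.04 FPKM in siC and at 4.42, 3.87, 4.27 and 4.32 FPKM in siImp1, without overlap (log2 change -0.37, limma adjusted p = 0.0323, and 0.0105 without siC replicate 3). SLC10A7 was at 4.48 ± 1.19 and 4.50 ± 0.411 FPKM, and SLC10A4 and SLC10A5 also overlapped between groups. The proton-coupled cation extruder SLC47A1 (MATE1) was at 5.07 ± 0.483 FPKM in siC and 4.36 ± 0.288 FPKM in siImp1 (log2 change -0.21, limma adjusted p = 0.204).

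Of the 12 ABCA genes, lipid transporters of the plasma and organelle membranes, 3 were tested and ABCA1 rose. The 250 bases before its RefSeq start (chr9:104928156-104928405, minus strand, GRCh38.p14, written 5′ to 3′ on that strand) are shown as the promoter of the most abundant member that was called, with the TATA box in capitals.
ABCA1: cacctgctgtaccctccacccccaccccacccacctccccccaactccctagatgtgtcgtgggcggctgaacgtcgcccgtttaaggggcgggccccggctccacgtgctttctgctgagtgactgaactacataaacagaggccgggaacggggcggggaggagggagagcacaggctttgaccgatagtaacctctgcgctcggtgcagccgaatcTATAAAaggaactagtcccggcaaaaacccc
This TATAAA begins 31 bases before the start, and no HNF1 or nuclear receptor core of the letters above lay in the window. ABCA1 (chr9:104781006-104928155) stood at 21.4, 22.0 and 22.6 FPKM in siC and at 38.1, 39.4, 37.6 and 37.2 FPKM in siImp1. The libraries of each group lay close together and the groups far apart. The mean went from 22.0 ± 0.603 FPKM (SD, n = 3) to 38.1 ± 0.967 FPKM (SD, n = 4), a 1.73-fold rise with a log2 change of 0.79 and a 95% interval from 0.66 to 0.91 (limma adjusted p = 0.00054). Like SLC22A9, it passed with any 1 library left out (limma adjusted p from 0.000296 to 0.00565). ABCA2, of lysosomal membranes, and ABCA5 had overlapping groups.

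Below the filter, 4 further ABCA genes had groups that did not overlap, all higher in siImp1. ABCA6 had 31 to 50 reads per siC library and 38 to 63 per siImp1 library, which is 0.124 ± 0.0303 and 0.239 ± 0.0330 FPKM. Its neighbour ABCA9 was at 0.0335 ± 0.0154 and 0.0929 ± 0.0261 FPKM, and the retinal transporter ABCA4 at 0.153 ± 0.0337 and 0.292 ± 0.0707 FPKM. ABCA13 had 0 to 4 reads per siC library and 5 in each siImp1 library. None of the 4 passed voom over genes with at least 20 reads in all (adjusted p = 0.0111 for ABCA6, and from 0.0509 to 0.0976 for the others).

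Of the 9 ABCB genes, 6 were tested and 1 rose. ABCB1, the drug pump P-glycoprotein (chr7:87503017-87713323, minus strand), stood at 9.06, 9.39 and 9.03 FPKM in siC and at 13.3, 13.8, 13.4 and 13.2 FPKM in siImp1. Libraries within a group lay within 1 FPKM of each other, and the groups did not overlap. The mean rose 1.47-fold, from 9.16 ± 0.201 FPKM (SD, n = 3) to 13.4 ± 0.268 FPKM (SD, n = 4), with a log2 change of 0.55 and a 95% interval from 0.42 to 0.67 (limma adjusted p = 0.00154). With 1 library left out, the call held without siC replicate 3 (adjusted p = 0.000908) and without siImp1 replicate 2, while without siC replicate 1 or 2 or siImp1 replicate 1, 3 or 4 the adjusted p lay between 0.0105 and 0.0122, just above the threshold, at log2 changes of 0.54 to 0.56. ABCB1 overlaps RUNDC3B on the other strand. Its neighbour ABCB4, the canalicular phosphatidylcholine translocator, was at 2.002 ± 0.3003 and 2.29 ± 0.252 FPKM with overlapping groups (adjusted p = 0.467).

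The other ABCB genes tested encode organelle transporters. ABCB8, of the mitochondrial inner membrane, stood at 5.06, 5.08 and 3.59 FPKM in siC and at 2.46, 2.61, 3.16 and 3.31 FPKM in siImp1. The groups did not overlap, but siC replicate 3 lay nearer to siImp1 than to the other siC libraries. The log2 change of -0.64 was the most negative of the members tested and missed the threshold (limma adjusted p = 0.0497), while without siC replicate 3 it was -0.80 and passed (adjusted p = 0.00909). ABCB10, linked to haem synthesis, was at 14.3 ± 0.821 and 13.2 ± 0.547 FPKM with overlap. ABCB6 had means of 1.86 and 1.87 FPKM.

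**Figure D3:**
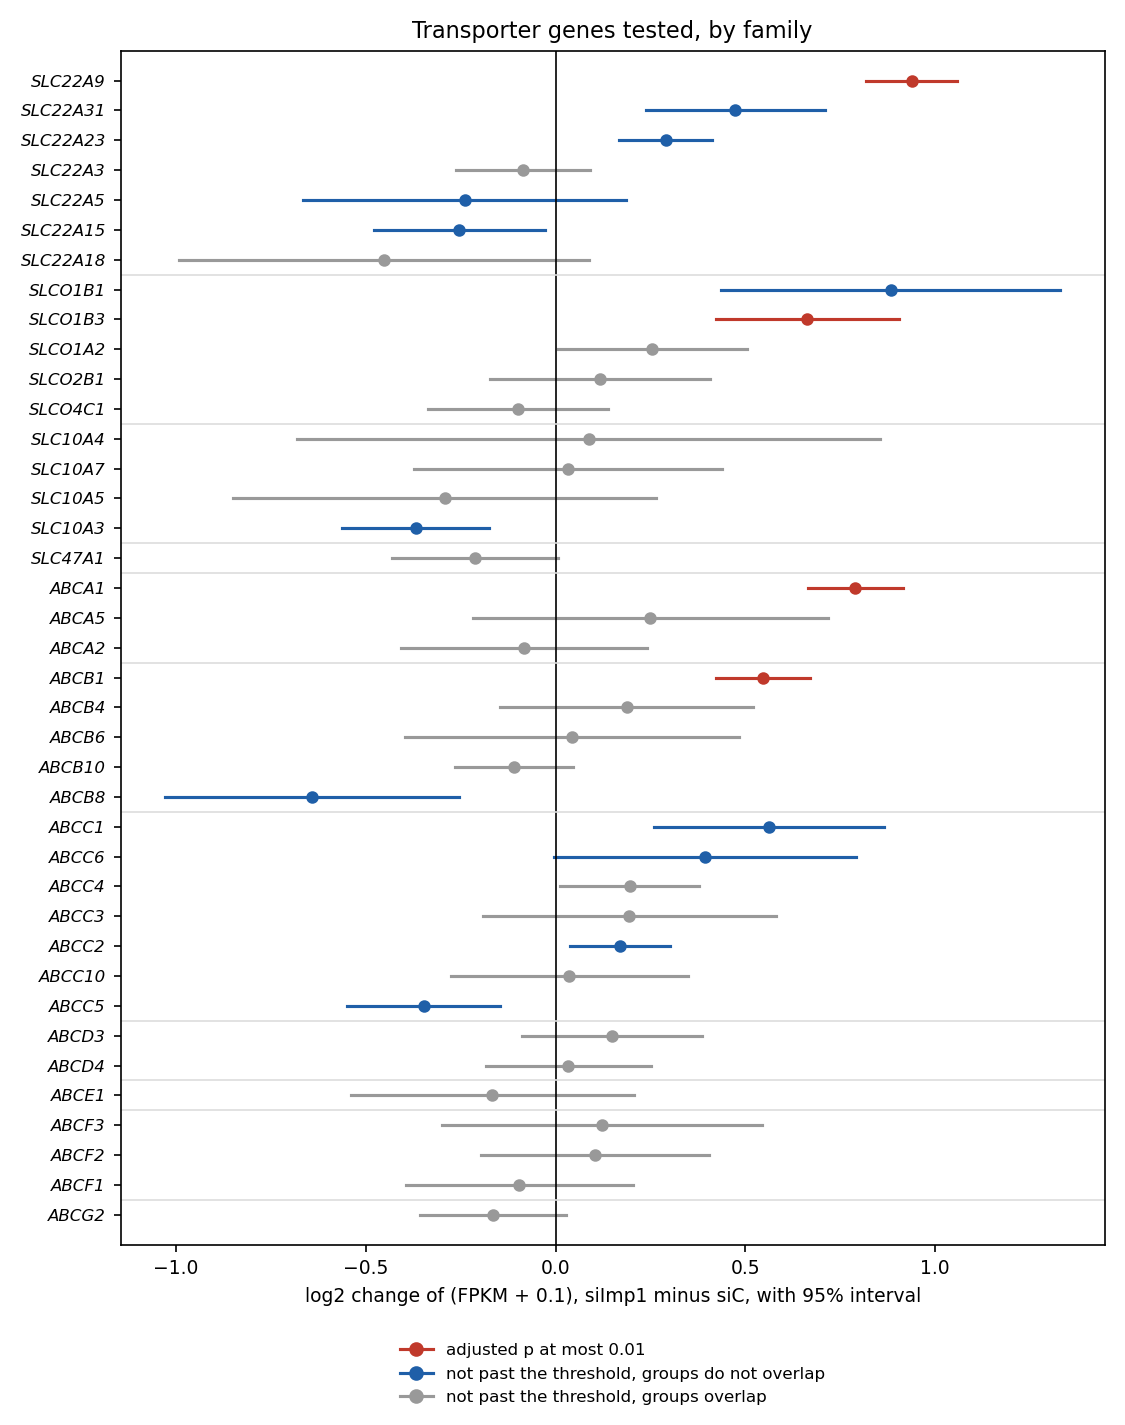
Log2 change of FPKM + 0.1, siImp1 minus siC, of 39 transporter genes tested (points) with limma 95% intervals (lines), grouped by family with the largest change of each family on top. Red marks the 4 genes past the adjusted p threshold of 0.01, all to the right of 0, blue the genes whose groups do not overlap without a call, and grey the 24 genes whose groups overlap.

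Among the 11 ABCC genes, 7 were tested and none was called by limma at 0.01 or by voom. At an unadjusted limma p under 0.05, 3 were higher and 1 lower, against 11.0% and 14.8% of all genes. ABCC2 (MRP2), the canalicular pump for conjugates, was at 38.4, 38.6 and 35.5 FPKM in siC and at 41.5, 41.8, 42.8 and 42.5 FPKM in siImp1. It had the highest mean of the 89 over the 7 libraries, while in siC alone ABCE1 had the higher mean (42.2 against 37.5 FPKM). The groups did not overlap, but the difference was small (log2 change 0.17, limma adjusted p = 0.107). ABCC1 (MRP1), a drug and glutathione conjugate pump, stood at 1.61, 1.68 and 1.68 FPKM in siC and at 2.21, 3.03, 2.43 and 2.37 FPKM in siImp1, without overlap (log2 change 0.56, limma adjusted p = 0.0346). ABCC5 (MRP5), a cyclic nucleotide and folate exporter, was lower in siImp1, at 10.7, 10.7 and 8.77 FPKM in siC and 7.79, 8.06, 7.99 and 7.55 FPKM in siImp1 (log2 change -0.35, limma adjusted p = 0.0440, and 0.00226 without siC replicate 3). Where each library was weighted by its spread, the log2 change of ABCC5 was -0.45. The siC weights were 0.607, 29.2 and 0.0729 for replicates 1, 2 and 3, so the siC mean rested almost wholly on replicate 2. Estimation of these weights stopped before convergence, and the weighted fit called 20 members. ABCC6, a liver protein needed for ATP release, was at 4.30 ± 1.06 and 5.57 ± 0.339 FPKM without overlap (adjusted p = 0.197). ABCC4 (MRP4) was at 12.4 ± 0.929 and 14.2 ± 0.859 FPKM and ABCC3 (MRP3), a basolateral exporter of conjugates, at 1.51 ± 0.279 and 1.72 ± 0.148 FPKM, both with overlap. ABCC8, a regulator of potassium channels, and ABCC12 were at 0 in each library.

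Of the 4 ABCD genes, 3 were tested and none was called by limma at 0.01 or by voom. ABCD3, which handles branched-chain fatty acids and bile acid precursors, was at 31.0 ± 4.68 and 34.1 ± 1.05 FPKM with overlap, and ABCD4 at 2.33 ± 0.0971 and 2.39 ± 0.135 FPKM.

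The ribosome-associated proteins were not called. ABCE1, needed for ribosome recycling, was at 34.8, 36.6 and 55.4 FPKM in siC and at 36.2, 36.6, 35.5 and 38.7 FPKM in siImp1, so that its lower siImp1 mean (log2 change -0.17, limma adjusted p = 0.576) rested on siC replicate 3, without which the log2 change was 0.04. ABCF2 was at 25.8 ± 4.57 and 27.4 ± 1.73 FPKM, and ABCF3 at 13.4 ± 3.56 and 14.2 ± 0.722 FPKM. In both, siC replicate 3 was the lowest library, and the sign of the difference turned without it (log2 changes of -0.05 and -0.12).

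Of the 5 ABCG genes, only ABCG2 (BCRP), a drug and urate exporter, was tested, with 9.98 ± 1.08 FPKM in siC and 8.86 ± 0.0792 FPKM in siImp1 (log2 change -0.16, limma adjusted p = 0.258). The sterol exporters ABCG5 and ABCG8 were low but did not overlap between groups. Their RefSeq start sites lie head to head on chromosome 2, at 43838839 for ABCG5 (minus strand) and 43838971 for ABCG8 (plus strand), 132 bases apart. The 131 bases between them (chr2:43838840-43838970, GRCh38.p14, on the ABCG8 strand) are shown because a single stretch precedes both genes, and are in lower case throughout since none of the 3 motifs was found there.
ABCG5-ABCG8: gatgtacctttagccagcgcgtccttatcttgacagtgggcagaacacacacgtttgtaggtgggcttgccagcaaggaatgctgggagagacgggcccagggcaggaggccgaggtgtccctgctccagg
ABCG8 stood at 0.516, 0.539 and 0.273 FPKM in siC and at 1.12, 1.12, 0.991 and 1.19 FPKM in siImp1, from 10 to 46 and from 35 to 56 reads per library. For ABCG5 the siC libraries held 0, 3 and 1 reads and the siImp1 libraries 6, 6, 7 and 7 reads. Both genes were higher in each siImp1 library than in any siC library. By voom over genes with at least 20 reads in all, ABCG8 passed (log2 change 1.26, adjusted p = 0.00768) and ABCG5 did not (adjusted p = 0.0297), and by limma without a filter ABCG8 did not pass either (adjusted p = 0.0503). The annotated spans of these genes overlap on opposite strands, so that some reads could belong to either. ABCG1, a cholesterol exporter of macrophages, had 1 to 10 reads per library and overlapping groups.

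Counted over all 43 members below the filter, 9 had groups that did not overlap and were higher in siImp1, and 0 were lower, where 5.22% and 2.64% of the genes below the filter had such values. These 9 are SLCO2A1, SLCO1B7, SLC22A10, ABCA4, ABCA6, ABCA9, ABCA13, ABCG5 and ABCG8. Over the 7 libraries together they had from 26 reads (ABCA13) and 30 (ABCG5) to 525 (SLCO2A1), and 25 of the 43 members below the filter had under 50. The shares of 5.22% and 2.64% are over genes of all biotypes, many with fewer reads than these 9. Of 34319 genes with reads, 21819 had at least 20 in all. No share matched to the members by reads or biotype was computed, so the size of the difference from other genes is uncertain. For the 5 members at 0 (ABCC8, ABCC12, SLC10A2, SLC22A6 and SLC22A12), a count of 0 allows a level of up to 0.0126 to 0.0960 FPKM per library (3 reads, counting error only). At this depth no difference in them was detectable.

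Several members lie side by side on chromosomes, and the 89 fall into 18 groups of neighbours with gaps of under 500 kb plus single genes. In the SLCO group (chr12:20695332-21942543), SLCO1B3, SLCO1B7 and SLCO1B1 were higher in siImp1 without overlap, while SLCO1C1, SLCO1A2 and ABCC9 overlapped between siC and siImp1. SLCO1C1 had 5 to 7 reads per library and ABCC9 had 6 to 33. SLCO1B7 was at 0.223 ± 0.130 and 0.467 ± 0.0103 FPKM, from 8 to 23 reads per library. It shares 87.5% of aligned bases and an exact stretch of 68 bases with SLCO1B3, and the readthrough gene spans both, so its value is uncertain. In the SLC22A group on chromosome 11 (chr11:62936385-63410294), SLC22A9 and SLC22A10 were higher without overlap. SLC22A10 was at 0.186 ± 0.0868 and 0.373 ± 0.0588 FPKM, and SLC22A25 at 0.360 ± 0.136 and 0.512 ± 0.0448 FPKM with overlap. SLC22A8 and SLC22A24 had at most 3 reads in a library, and SLC22A6 had none. SLC22A9 and SLC22A25 were 84.2% identical, with an exact stretch of at most 40 bases.

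**Figure D4:**
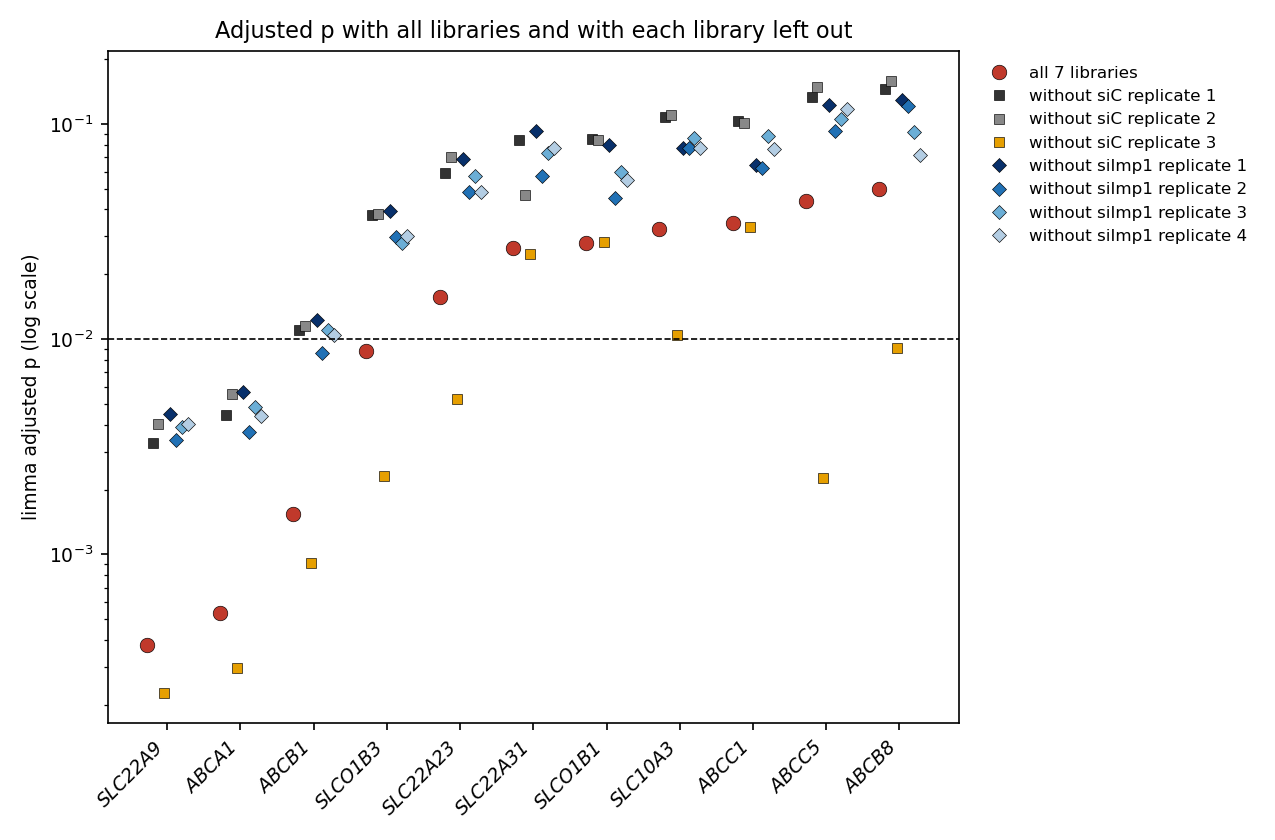
Limma adjusted p (vertical axis, log scale) of 11 transporter genes at or below 0.05, with all 7 libraries (red circles) and with each library left out (squares for siC, diamonds for siImp1), and a dashed line at 0.01. SLC22A9 and ABCA1 stay below the line throughout, and ABCB8, ABCC5 and SLC22A23 fall below it only without siC replicate 3.

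The leave-one-out plot separates the members by how many sets with 1 library left out kept the call. SLC22A9 and ABCA1 passed in 7 of 7 sets of libraries, ABCB1 in 2 and SLCO1B3 in 1. Without siC replicate 3 the calls were 7, the 4 above with SLC22A23 as a higher and ABCB8 and ABCC5 as lower members, where 3.59% of genes were called higher and 6.67% lower.

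Genes that make, conjugate and sense bile acids, with 4 further bile salt and lipid carriers (SLC51A, SLC51B, ATP8B1 and TMEM30A), were examined as the pathway around these members. Of these 30 genes, 20 were tested, and none of the 20 was called in either direction by limma at 0.01 or by voom. At an unadjusted limma p under 0.05, 4 were higher and 3 lower, against 11.0% and 14.8% of all genes. Their median log2 change was -0.02. CYP7A1, the rate-limiting enzyme of bile acid synthesis, had 3 reads in 1 siImp1 library and none elsewhere, and the 12-hydroxylase CYP8B1 was at 0 in each library. AKR1D1, the reductase that sets the ring junction of bile acids, was at 0.903, 0.707 and 0.775 FPKM in siC and at 2.05, 1.34, 1.88 and 1.37 FPKM in siImp1, without overlap (log2 change 0.96, limma adjusted p = 0.0323). Its siC mean of 0.795 FPKM lay below the filter level, so AKR1D1 was tested only through its siImp1 mean of 1.66 FPKM. NR0B2 (SHP), a repressor induced by the bile acid receptor, was at 4.20, 4.92 and 4.02 FPKM in siC and at 2.67, 2.58, 1.89 and 2.67 FPKM in siImp1, also without overlap (log2 change -0.82, adjusted p = 0.0147). NR1H4 (FXR), that receptor, had means of 49.2 FPKM in both groups. FGF19, a hormone that represses bile acid synthesis, was at 20.5 ± 2.52 and 27.1 ± 1.16 FPKM without overlap (adjusted p = 0.0297, and 0.00199 without siC replicate 3). For the basolateral bile salt exporter, SLC51A lay below the filter at 0.455 ± 0.0733 and 0.906 ± 0.113 FPKM without overlap. By voom over genes with at least 20 reads in all, SLC51A passed (log2 change 0.95, adjusted p = 0.00738, with 1.94% of 21819 genes called higher). By limma without a filter it did not (adjusted p = 0.0791). Its partner SLC51B was at 31.6 ± 6.32 and 24.5 ± 1.75 FPKM (limma adjusted p = 0.175, and 0.00598 without siC replicate 3).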

How the data were processed

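Total RNA was depleted of ribosomal RNA, made into directional libraries and sequenced on a NextSeq 500 by the authors. Per the labels and the methods, reads were clipped with cutadapt 1.14, aligned with HISAT2 2.1.0 to GRCh38, handled with SAMtools 1.5 and summarised per Ensembl gene with featureCounts 1.5.3, and differences were determined with edgeR 3.18.1 after TMM scaling. The deposited table holds 1 FPKM value per gene and library, and the authors' own fold changes, p-values and FDR, which were not used. Dates stood in place of 27 symbols, and genes were matched by identifier. The FPKM values by gene length gave whole reads for at least 99.9853% of values (tolerance 0.05 reads), with TMM factors from 0.964 to 1.03, and these reads gave the depth.

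The sample titles gave the groups and replicate numbers. Genes averaging 1 FPKM or more over 7 libraries were tested with limma 3.58.1 (R 4.3.3) on log2(FPKM + 0.1) with a mean-variance trend, two-sided, without covariates, adjusted by Benjamini-Hochberg over all genes tested, with calls at 0.01. On this scale the change of low genes is understated. Libraries of a group differed by more than sampling noise in each pair (chi-square over degrees of freedom 1.99 to 56.8). The labels do not say that replicates were separate cultures, so p-values measure only the spread between these libraries. Reads were also simulated at the depths of these libraries (14811 genes tested). There limma called 54 of 100 genes changed 2-fold and 92 of 99 changed 4-fold, with 1 false call, and voom called 86 and 97 with 0. The simulation gave all genes and libraries the same dispersion and changed only genes above the filter level. It held no deviating siC replicate 3 and no GC trend, so its counts of calls and false calls need not hold for the real libraries.

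Named members are those called, those tested without overlap between groups, the 10 most abundant and a list of 21 hepatocyte and multidrug carriers. The other members mentioned below the filter or within a family or locus (SLC22A18, SLCO1A2, SLCO4C1, SLCO2A1, SLC10A4, SLC10A7, ABCA6 and the like) were named after their values were seen. The members and all lists were chosen with earlier results of these data known. Alternatives were a pseudocount of 1, no filter, median centring, quantile normalization, voom on the reads, a replicate block, array weights, a threshold of 0.05 and leaving out each library. Removal of a GC trend and voom over genes with at least 20 reads in all were added after the data were seen. Promoters are RefSeq windows (GRCh38.p14), and transcripts and gene positions GENCODE release 44. SLC22A9 and SLCO2A1 promoters were not analysed here. Some members and their values are not reported here, though they are included in the counts.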

Additional observations from a re-analysis of the deposited data

Results flagged for a closer look

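Of 30 results examined for an outlying library among the 4 siImp1 libraries, 1 stood out, where chance gives 1.5 at the 95% level of Dixon's test. The 3 siC libraries, among them the deviating replicate 3, were not examined in this way. SLCO1B1 in siImp1 replicate 2 was at 2.68 FPKM, against 1.69 to 1.86 FPKM in the other siImp1 libraries. The gap to the nearest library made up 0.834 of the range of the group, above the critical value for 4 samples. Without this library the log2 change of SLCO1B1 was 0.74 (limma adjusted p = 0.0451), and the groups still did not overlap.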

How the results depend on the processing

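All 4 called members (SLC22A9, ABCA1, ABCB1 and SLCO1B3) kept direction and call with a pseudocount of 1, median centring, quantile normalization, voom, voom over genes with at least 20 reads in all, GC trend removal and array weights. Without a filter 3 of the 4 were called, with SLCO2A1 in place of SLCO1B3 (limma adjusted p = 0.020). The number of members higher, 4, became 9 at a threshold of 0.05, 13 with array weights and 0 with a replicate block, and ran from 2 to 5 with 1 library left out. The number lower, 0, became 3 at 0.05 and 7 with array weights, and ran from 0 to 2 with 1 library left out. The array weights ran from 0.0729 for siC replicate 3 to 29.2 for siC replicate 2, and their estimation stopped before convergence. Same-numbered libraries did not deviate together (correlations of 0.00369, -0.110 and -0.149). This cannot exclude that the numbers pair them, since siC replicate 3 weighs on the siC means from which the deviations were taken. The block uses only 6 libraries, and in it IGF2BP1 did not pass either (log2 change -2.36, limma adjusted p = 0.0944). Uncalled log2 changes turned sign with array weights for ABCE1 (0.0022), ABCF3 (-0.046) and SLCO2B1 (-0.025). They also did so without siC replicate 3, where they ran with 1 library left out from -0.291 to 0.044 for ABCE1, from -0.051 to 0.198 for ABCF2, from -0.117 to 0.267 for ABCF3 and from -0.034 to 0.201 for SLCO2B1. The cause was not tested. Depth limits the members below the filter, of which 25 had under 50 reads in all.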

Other observations

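Enzymes that conjugate the cargo of these carriers were examined beside them. Of 10 phase II genes, 6 were tested, 4 rose and 0 fell by limma at 0.01 as by voom. Over all genes tested, limma called 1.65% higher and 2.28% lower, and voom 2.38% and 3.3%. At an unadjusted limma p under 0.05 the counts were 5 and 0, against 11.0% and 14.8% of all genes. The median log2 change was 0.92 (-0.02 over all genes). These counts and the median include UGT1A1 and SULT1A1, whose siC means (0.501 and 0.920 FPKM) lay below the filter level of 1 FPKM. Both were tested only through their siImp1 levels (means of 2.37 and 1.11 FPKM). UGT1A1, which conjugates bilirubin, stood at 0.431, 0.552 and 0.520 FPKM in siC and at 2.32, 2.30, 2.13 and 2.71 FPKM in siImp1 (log2 change 2.04, limma adjusted p = 0.00096). UGT2B4, which conjugates bile acids, stood at 7.24, 7.33 and 6.96 FPKM in siC and at 12.7, 12.4, 12.3 and 13.0 FPKM in siImp1 (log2 change 0.80, adjusted p = 0.00054). Neither gene overlapped between groups, and both passed with any 1 library left out. The glutathione transferases GSTA1 (log2 change 1.35, adjusted p = 0.00484) and GSTA2 (1.04, adjusted p = 0.00755) also rose. With 1 library left out they passed only without siC replicate 3 (adjusted p = 0.00046 and 0.00818), and otherwise reached at most 0.0231 and 0.0347. UGT1A genes share exons and GSTA1 and GSTA2 are close copies, so reads of these genes may be split between them.

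Of 9 listed symbols of membrane protein scaffolds, 7 were found and 5 tested, with none called by limma or voom. At an unadjusted limma p under 0.05, 1 was higher and 1 lower, against 11.0% and 14.8% of all genes. PDZK1, which anchors carriers at the membrane, was at 40.2, 40.9 and 23.0 FPKM in siC and at 49.0, 44.7, 47.6 and 48.0 FPKM in siImp1 (log2 change 0.49, limma adjusted p = 0.173, and 0.0185 without siC replicate 3). RDX, a linker to actin, was at 38.3 ± 1.63 and 32.7 ± 0.842 FPKM without overlap (adjusted p = 0.0446, and 0.00556 without siC replicate 3).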
